A study of Arabidopsis thaliana with 24 samples.

Results

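A set of 6 tonoplast intrinsic protein (TIP) genes, aquaporins of the vacuolar membrane, were followed through roots and shoots of Arabidopsis seedlings grown with and without titanium. The genes were taken by locus, as the rows whose identifier before the dot was one of the 6 loci, and all 6 were found in the table of each organ. They are GAMMA-TIP1 (TIP1;1, AT2G36830), GAMMA-TIP2 (TIP1;2, AT3G26520), DELTA-TIP1 (TIP2;1, AT3G16240), DELTA-TIP2 (TIP2;2, AT4G17340), DELTA-TIP3 (TIP2;3, AT5G47450) and TIP4;1 (AT2G25810), and are called below by their RefSeq names, as are the plasma membrane aquaporins. The 6 genes stand among 21245 genes measured in either organ, 20336 of them in roots and 19495 in shoots. Their relatives GAMMA-TIP3, TIP3;1, TIP3;2 and TIP5;1 were looked for and had no values in the deposited data of either organ.

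TIPs are channels that let water cross the tonoplast, the membrane around the vacuole, and so let the largest compartment of a plant cell take part in the water balance of the cytosol. Several also pass small uncharged solutes. GAMMA-TIP1 and GAMMA-TIP2 carry water, urea and hydrogen peroxide, DELTA-TIP1 and DELTA-TIP3 carry ammonia as well as water, and TIP4;1 passes urea. The gamma forms are typical of the large vacuoles of grown cells, and several members are known for expression in particular cell layers of the root.

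Wild-type Col-0 seedlings were moved, after 5 days of growth, to MS agar that held TiO2 at 2 mM (Ti) or no titanium (Ctrl). Their roots and shoots were harvested 10 or 3 days afterwards. The 24 libraries make 8 groups of 3, each library a pool of 160 seedlings: Ti-R-10D, Ctrl-R-10D, Ti-R-3D and Ctrl-R-3D for roots, and Ti-S-10D, Ctrl-S-10D, Ti-S-3D and Ctrl-S-3D for shoots. The deposited values are log2 CPM, counts scaled to a common library size, in which the 3 columns of a group are identical in every row (0 rows with a difference in either organ), so that each gene has 1 fitted value per group. The spread between pools is therefore not known, no difference below could be tested against it, and each is a description of 2 group values. Whole-organ RNA cannot tell fewer cells of a type from less RNA per cell.

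A difference is given as log2F.C., the log2 CPM of the first group minus that of the second. It is called higher or lower beyond 0.2, the limit on log2F.C. used in the study. The study paired that limit with a false discovery rate, which could not be applied here, so these calls are not those of the study. It names its differentially expressed genes at 3 days, and no TIP gene is among them. The share of all genes past the limit is printed beside each first count of TIP genes. If the lowest value of each table is taken as the default prior count of the authors' edgeR fit, 1 CPM is 21.5 reads in a root library and 22.6 reads in a shoot library, and 3 reads over the 3 libraries of a group come to 0.0466 CPM in roots and 0.0442 CPM in shoots. The 95% intervals printed for weakly expressed genes come from these inferred reads by the exact binomial method and cover counting error only. The organs were normalized apart, so that root and shoot levels are set side by side without a test.

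The labelled organs fit their markers. The 8 shoot markers, photosynthesis genes such as RBCS1A, summed to between 46745 and 63221 CPM in shoot groups and to between 592 and 752 CPM in root groups. The root markers summed to between 287 and 422 CPM over 8 genes in root groups. In shoot groups they summed to between 6.28 and 8.15 CPM over 6 genes, COBL9 and EXPA7 having no values there.

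Every TIP has a pair of asparagine-proline-alanine (NPA) boxes that meet in the middle of the pore, and all 6 genes carry 2 in-frame boxes in their coding sequence. The stretch around the first box is shown for each gene because it is the part of the pore the 6 share, and because its third-position differences are of the kind that let reads be assigned to 1 gene rather than another. Sequences are from RefSeq TAIR10.1, read 5′ to 3′ on the coding strand, with the codons of the box in capitals, and each stretch lies inside 1 coding exon. They stand at chr2:15445727-15445765 (plus strand), chr3:9723425-9723463 (minus), chr3:5505868-5505906 (plus), chr4:9699549-9699587 (plus), chr5:19249197-19249235 (minus) and chr2:11012985-11013023 (plus).
GAMMA-TIP1: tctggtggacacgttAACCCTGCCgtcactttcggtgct
GAMMA-TIP2: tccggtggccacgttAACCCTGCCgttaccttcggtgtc
DELTA-TIP1: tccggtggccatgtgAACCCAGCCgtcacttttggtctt
DELTA-TIP2: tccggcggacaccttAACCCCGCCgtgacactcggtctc
DELTA-TIP3: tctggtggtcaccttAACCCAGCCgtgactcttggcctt
TIP4;1: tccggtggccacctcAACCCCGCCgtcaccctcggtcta

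The 6 genes have 1 annotated transcript each, of between 1169 and 1353 bases. Coding sequences were 81.5% identical between GAMMA-TIP1 and GAMMA-TIP2 and 81.5% between DELTA-TIP2 and DELTA-TIP3. DELTA-TIP1 shared 70.7% with DELTA-TIP2 and 70.1% with DELTA-TIP3, and the other pairs lay between 57.9% and 66.1%. Even the closest pairs had no 31-base word in common, 31 bases being the length of the words by which kallisto assigns reads by default. Of the 1159 words of DELTA-TIP1, 90 (7.77%) also occur in the neighbouring gene AT3G16250 (PnsB3, a subunit of the chloroplast NDH complex). That gene lies on the opposite strand, and its end overlaps the end of DELTA-TIP1 by 120 bases. The use of strand in the counting is not given in the sources used here, so part of the DELTA-TIP1 reads may not be told apart from those of its neighbour. In shoots that neighbour had 47.6 CPM in Ti-S-10D against 43.4 CPM in Ctrl-S-10D, and 115 CPM in Ti-S-3D against 104 CPM in Ctrl-S-3D. It had no values in the deposited data for roots. Of the 1260 words of GAMMA-TIP2, 6 occur in AT5G28897, and the other 4 genes shared none.

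The 250 bases before the transcript start are printed for the 3 delta genes, close relatives that differ in the organ where they are abundant and that share short runs there. They lie at chr3:5505110-5505359 (plus strand, DELTA-TIP1), chr4:9698690-9698939 (plus, DELTA-TIP2) and chr5:19249623-19249872 (minus, DELTA-TIP3) of TAIR10.1, and capitals mark the shared runs that contain GCACCT.
DELTA-TIP1: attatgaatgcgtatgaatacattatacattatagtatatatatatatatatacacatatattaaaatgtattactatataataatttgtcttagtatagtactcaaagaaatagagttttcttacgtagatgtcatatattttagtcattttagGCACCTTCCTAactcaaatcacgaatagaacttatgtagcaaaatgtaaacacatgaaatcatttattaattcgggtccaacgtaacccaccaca
DELTA-TIP2: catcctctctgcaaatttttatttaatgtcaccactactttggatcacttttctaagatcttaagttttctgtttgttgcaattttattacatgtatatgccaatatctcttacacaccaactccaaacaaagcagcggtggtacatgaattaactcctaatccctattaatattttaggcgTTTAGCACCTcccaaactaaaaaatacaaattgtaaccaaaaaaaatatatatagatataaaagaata
DELTA-TIP3: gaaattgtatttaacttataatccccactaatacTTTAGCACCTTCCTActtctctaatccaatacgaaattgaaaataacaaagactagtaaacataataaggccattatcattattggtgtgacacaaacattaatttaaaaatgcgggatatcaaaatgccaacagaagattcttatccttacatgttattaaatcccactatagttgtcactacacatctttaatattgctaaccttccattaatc

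The letters GCACCT occur in all 3 delta windows and in 1.10% of the 27443 windows of the same length before annotated starts, counted on the coding strand. They begin 95 bases before the start in DELTA-TIP1, 64 in DELTA-TIP2 and 212 in DELTA-TIP3. Other runs of 6 bases shared by all 3 were commoner, from TACACA (8.81% of windows) to ATTAAT (26.6%). DELTA-TIP1 and DELTA-TIP3 share the longer run GCACCTTCCTA, found in 3 windows in all (0.0109%), and DELTA-TIP2 and DELTA-TIP3 share TTTAGCACCT, found in 9 windows (0.0328%). All these counts include the windows of the delta genes themselves. The longest runs shared by DELTA-TIP1 and DELTA-TIP2 do not contain GCACCT. They are ATATATATA (4.96% of windows), ATATTTTAG (0.780%) and ATTTTAGGC (0.175%). These runs were picked after the sequences were seen and are a description only. Of 7 motifs searched on both strands of windows that run to 50 bases past the start, ACGTG was found at GAMMA-TIP1 and DELTA-TIP3 (26.7% of all windows hold it), TTGAC at GAMMA-TIP2 and TIP4;1 (50.5%), ACCGAC at GAMMA-TIP1 (5.70%) and TATAAA at DELTA-TIP1, DELTA-TIP2 and TIP4;1 (52.1%). CACGTG, which contains ACGTG, was found at none of the 6 (7.68% of all windows), nor were GCCGAC (3.28%) and AAAATATCT (2.82%).

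In roots, 5 of the 6 TIP genes were among the most abundant transcripts of the organ. Per kilobase of transcript, the order was the same in all 4 root groups: GAMMA-TIP2, GAMMA-TIP1, DELTA-TIP2, DELTA-TIP3, DELTA-TIP1 and TIP4;1. GAMMA-TIP2 made up between 35.8% and 38.2% of the summed CPM per kilobase of the 6 genes and GAMMA-TIP1 between 27.9% and 31.7%. The nearest neighbours in this order were those 2 genes, at 1514 and 1172 CPM per kilobase in Ti-R-10D against 1369 and 1029 in Ctrl-R-10D. At 3 days they stood at 1221 and 1059 CPM per kilobase in Ti-R-3D against 1228 and 1082 in Ctrl-R-3D. Whether neighbours differ beyond the spread between pools cannot be said.

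GAMMA-TIP1 had 1449.7 CPM in Ti-R-10D against 1273 CPM in Ctrl-R-10D, and 1310.4 CPM in Ti-R-3D against 1339 CPM in Ctrl-R-3D. GAMMA-TIP2 had 1953 CPM in Ti-R-10D against 1765 CPM in Ctrl-R-10D, and 1575 CPM in Ti-R-3D against 1584 CPM in Ctrl-R-3D. Both genes ranked above between 99.8% and 99.9% of the root genes in every group. DELTA-TIP2, a water channel known from inner cell layers of the root, had 1032 CPM in Ti-R-10D against 1012 CPM in Ctrl-R-10D, and 884 CPM in Ti-R-3D against 916 CPM in Ctrl-R-3D. DELTA-TIP3, its closest relative, had 355 CPM in Ti-R-10D against 381 CPM in Ctrl-R-10D, and 248 CPM in both Ti-R-3D and Ctrl-R-3D. Of these 2 relatives, DELTA-TIP2 was thus the more abundant in roots. DELTA-TIP1 had 201 CPM in Ti-R-10D against 195 CPM in Ctrl-R-10D, and 161 CPM in Ti-R-3D against 188 CPM in Ctrl-R-3D. TIP4;1 had 53.3 CPM in Ti-R-10D against 54.1 CPM in Ctrl-R-10D, and 76.4 CPM in Ti-R-3D against 80.9 CPM in Ctrl-R-3D. It was the least abundant of the 6, above between 77.1% and 86.6% of root genes.

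In shoots, GAMMA-TIP2 and DELTA-TIP1 stood far above the other members, and DELTA-TIP3 and TIP4;1 were close to the lower end of the table. Per kilobase the order was GAMMA-TIP2, DELTA-TIP1, GAMMA-TIP1, DELTA-TIP2, TIP4;1 and DELTA-TIP3 in all 4 shoot groups. GAMMA-TIP2 made up between 51.9% and 55.5% of the summed CPM per kilobase and DELTA-TIP1 between 32.5% and 37.0%, against 1.93% to 3.47% for DELTA-TIP2.

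GAMMA-TIP1 had 346 CPM in Ti-S-10D against 310.4 CPM in Ctrl-S-10D, and 218 CPM in Ti-S-3D against 232 CPM in Ctrl-S-3D. GAMMA-TIP2 had 2000.4 CPM in Ti-S-10D against 1921 CPM in Ctrl-S-10D, and 1465 CPM in Ti-S-3D against 1591 CPM in Ctrl-S-3D. DELTA-TIP1 had 1289.9 CPM in Ti-S-10D against 1263 CPM in Ctrl-S-10D, and 789 CPM in Ti-S-3D against 894 CPM in Ctrl-S-3D. In all 3 genes both 10-day groups lay above both 3-day groups. DELTA-TIP2 had 77.5 CPM in Ti-S-10D against 90.4 CPM in Ctrl-S-10D, and 92.4 CPM in Ti-S-3D against 106 CPM in Ctrl-S-3D. DELTA-TIP3 had 0.178 CPM in Ti-S-10D against 0.593 CPM in Ctrl-S-10D, and 0.0395 CPM in Ti-S-3D, which is under 3 reads over the group, against 0.359 CPM in Ctrl-S-3D. TIP4;1 had 0.378 CPM in Ti-S-10D against 0.624 CPM in Ctrl-S-10D, and 1.18 CPM in Ti-S-3D against 1.64 CPM in Ctrl-S-3D. For these last 3 genes, each Ti group lay below the Ctrl group of its day.

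**Figure D1:**
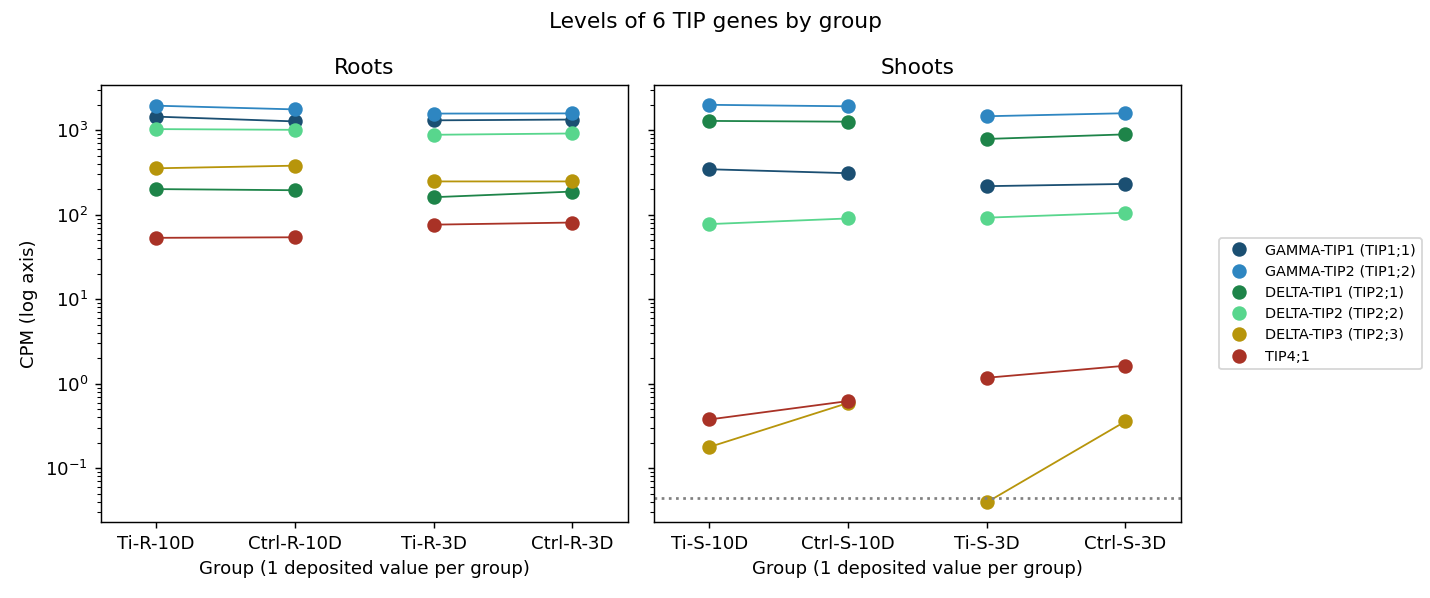
CPM on a log axis (vertical) of the 6 TIP genes in the 4 root groups (left panel) and 4 shoot groups (right panel), 1 deposited value per group, with lines joining Ti to Ctrl of the same day and a dotted line at 3 reads over a shoot group. GAMMA-TIP2 lies between 1465 and 2000.4 CPM in every group of both organs, while DELTA-TIP3 lies between 248 and 381 CPM in roots and between 0.0395 and 0.593 CPM in shoots.

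Side by side, the organs differed most for DELTA-TIP3 and least for GAMMA-TIP2. In control seedlings, GAMMA-TIP2 had 0.919 times as much CPM in roots as in shoots at 10 days and 0.995 times as much at 3 days. GAMMA-TIP1 was 4.10 times as high in roots as in shoots at 10 days and 5.78 times at 3 days, and DELTA-TIP2 11.2 times at 10 days and 8.67 times at 3 days. DELTA-TIP1 went the other way, with 6.47 times as much in shoots as in roots at 10 days and 4.75 times at 3 days. The shoot level of DELTA-TIP3 was 0.156% of its root level at 10 days and 0.145% at 3 days, and that of TIP4;1 was 1.15% at 10 days and 2.02% at 3 days. The 3 delta genes, alike in sequence, thus held the most shoot-rich and the most root-rich pattern among the 6. The root markers measured in shoots had shoot levels of between 0.185% (CASP1) and 15.2% (ESB1) of their root levels in the 10-day controls.

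In roots, Ti was accompanied by small differences of the TIP genes. At 10 days, 0 of 6 genes passed 0.2 in either direction, where 46% of the 20336 root genes did. GAMMA-TIP1 came closest with a log2F.C. of 0.19, followed by GAMMA-TIP2 with 0.15, while DELTA-TIP1 (0.04), DELTA-TIP2 (0.03, or -0.04 under quantile normalization), TIP4;1 (-0.02) and DELTA-TIP3 (-0.10) lay nearer to 0. The median of the 6 was 0.04, and that of all root genes 0.02. With each group scaled to the same median, GAMMA-TIP1 reached 0.20 and was past the limit. Of the root markers, 5 of 8 were higher in Ti-R-10D and 0 lower, with sums of 366 CPM in Ti-R-10D against 287 CPM in Ctrl-R-10D, and their part in these values was not tested.

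At 3 days, 1 of 6 genes, DELTA-TIP1, was lower in Ti roots, where 8.38% of root genes were lower and 16.9% passed 0.2 in either direction. Its log2F.C. was -0.22, from 161 CPM in Ti-R-3D against 188 CPM in Ctrl-R-3D. Highly expressed genes differed little at this time: of the 2082 root genes averaging 100 CPM or more, 1.06% were below -0.2, and the DELTA-TIP1 value was at percentile 0.768 of them. The other 5 genes lay between -0.08 (TIP4;1) and -0.00 (DELTA-TIP3). All 6 values were below 0, DELTA-TIP3 not under quantile normalization (0.03), as were 51.8% of all root genes and 58.4% of those with at least 100 CPM. The shoot markers went the opposite way in the same libraries, 6 of 8 being higher in Ti-R-3D and 0 lower, with sums of 701 CPM in Ti-R-3D against 592 CPM in Ctrl-R-3D and none at 0. DELTA-TIP1 is itself a shoot-rich gene, and the part of shoot RNA in its value was not tested.

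**Figure D2:**
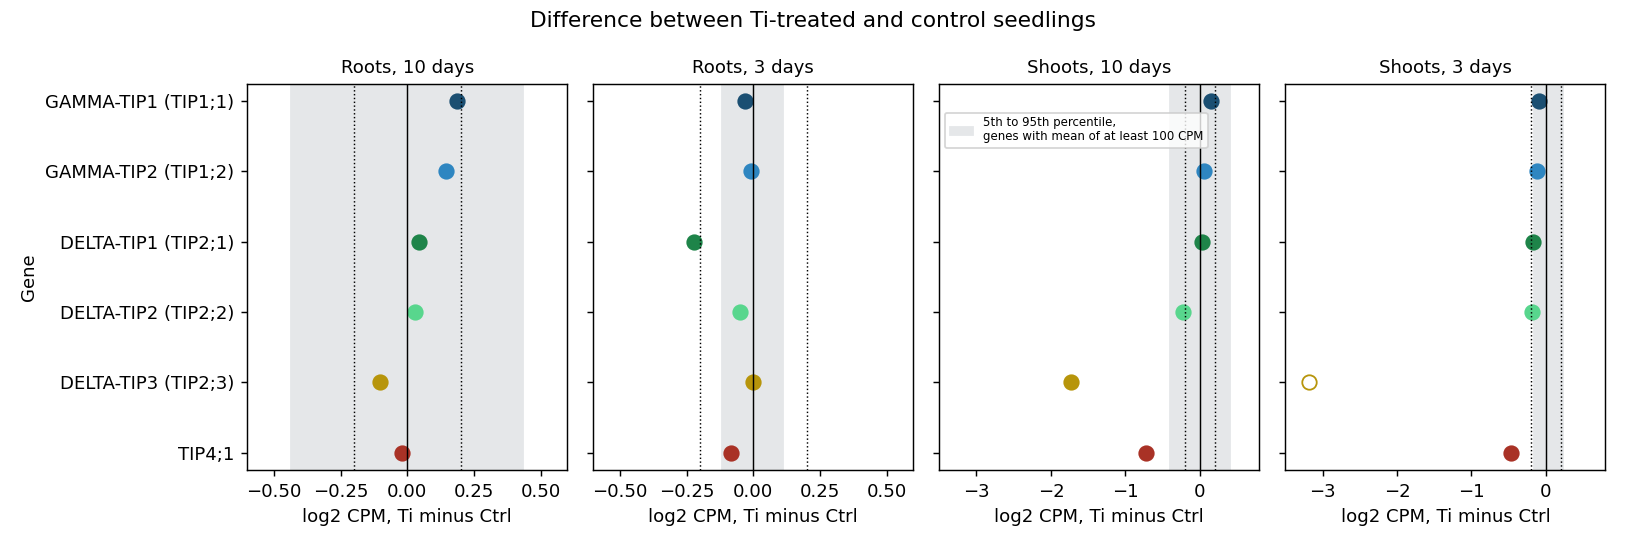
Log2 CPM of Ti minus Ctrl (horizontal) for the 6 TIP genes (vertical) in roots and shoots at 10 and 3 days, each organ with its own scale. Grey bands run from the 5th to the 95th percentile of genes that average 100 CPM or more, dotted lines stand at -0.2 and 0.2, and the open circle marks a gene with under 3 reads in a group. DELTA-TIP1 at -0.22 lies outside the narrow band of 3-day roots, and DELTA-TIP3 and TIP4;1 lie left of the bands in shoots. In 3-day shoots DELTA-TIP1 (-0.18) and DELTA-TIP2 (-0.19) also lie left of the band, which begins at -0.16. The bands do not cover genes as scarce as DELTA-TIP3 and TIP4;1 are in shoots. Over all shoot genes the 5th percentile was -0.56 at 10 days and -0.42 at 3 days, with TIP4;1 at -0.72 and -0.47.

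In shoots at 10 days, the 2 scarce members and DELTA-TIP2 were lower with Ti, and the 3 abundant ones lay above 0 within the limit. Thus 3 of 6 genes were lower and 0 higher, where 21.7% of the 19495 shoot genes were lower and 45.8% passed 0.2 in either direction. DELTA-TIP2 had a log2F.C. of -0.22, and 19.6% of shoot genes had a lower value. GAMMA-TIP1 (0.15), GAMMA-TIP2 (0.06) and DELTA-TIP1 (0.03) were above 0 without passing 0.2, and under quantile normalization GAMMA-TIP2 (-0.04) and DELTA-TIP1 (0) were not. DELTA-TIP3 had a log2F.C. of -1.73 (95% counting interval -2.80 to -0.78), from about 11.7 inferred reads in Ti-S-10D against 39.9 in Ctrl-S-10D. TIP4;1 had a log2F.C. of -0.72 (counting interval -1.52 to -0.00060), from about 25.3 reads in Ti-S-10D against 42.0 in Ctrl-S-10D. Only 1 of the 3 lower genes, DELTA-TIP2, remained when genes under a mean of 1 CPM were left out.

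At 3 days, all 6 shoot values were below 0, as were 48.8% of all shoot genes and 54.2% of those with at least 100 CPM. TIP4;1 was the 1 gene of 6 called lower, where 12% of shoot genes were lower and 25.1% passed 0.2 in either direction. DELTA-TIP2 followed with -0.19, DELTA-TIP1 with -0.18, GAMMA-TIP2 with -0.12 and GAMMA-TIP1 with -0.09. Among the 1613 shoot genes of at least 100 CPM, the DELTA-TIP1 value was at percentile 3.66, that of GAMMA-TIP2 at 10.7 and that of GAMMA-TIP1 at 17.9. DELTA-TIP2 lay so close to the limit that scaling each group to the same median (-0.20) or quantile normalization (-0.22) took it past, for 2 lower genes. TIP4;1 had a log2F.C. of -0.47 (counting interval -0.91 to -0.04), from about 79.7 reads in Ti-S-3D against 110.7 in Ctrl-S-3D. DELTA-TIP3 had about 2.31 reads in Ti-S-3D against 24.02 in Ctrl-S-3D, a ratio of 0.1101 with a counting interval of 0.00955 to 0.336, and was given no call.

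DELTA-TIP3 and TIP4;1 are root genes at trace levels in these shoots, and some root markers were lower with Ti in the same groups, more of them at 3 than at 10 days. At 3 days, 4 of the 6 root markers measured in shoots were lower with Ti and 0 higher, where 12% of all shoot genes were lower. The 6 summed to 6.28 CPM in Ti-S-3D against 7.42 CPM in Ctrl-S-3D. PER64, a peroxidase of the endodermis, had 0.305 CPM in Ti-S-3D against 0.531 CPM in Ctrl-S-3D, and MYB36, the regulator of Casparian strip formation, 0.518 CPM in Ti-S-3D against 0.919 CPM in Ctrl-S-3D. PRP3, a root hair gene, had 0.0380 CPM in Ti-S-3D, under 3 reads, against 0.201 CPM in Ctrl-S-3D, while ESB1, a Casparian strip protein, had 3.89 CPM in Ti-S-3D against 3.84 CPM in Ctrl-S-3D. At 10 days, 2 of 6 were lower and 0 higher, where 21.7% of all shoot genes were lower, with sums of 7.54 CPM in Ti-S-10D against 8.15 CPM in Ctrl-S-10D. Of the 6, 4 were below 0 and 2 above. The 2 above were MYB36, with 0.409 CPM in Ti-S-10D against 0.405 CPM in Ctrl-S-10D, and CASP2, with 2.35 against 2.29 CPM. The part of root RNA in the shoot values of DELTA-TIP3 and TIP4;1 was not tested.

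**Figure D3:**
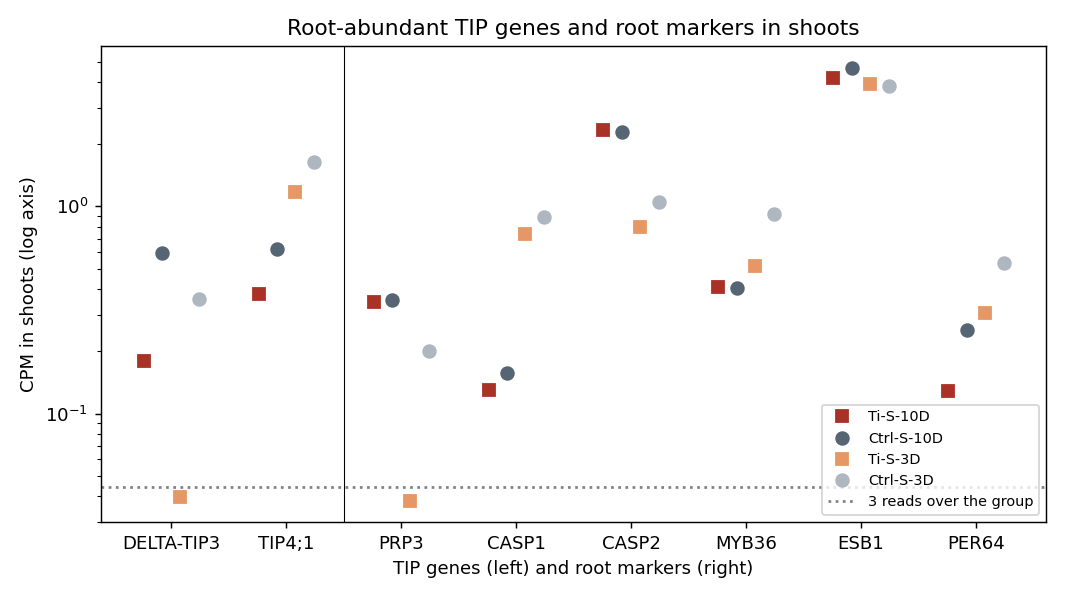
CPM in shoots on a log axis (vertical) of DELTA-TIP3 and TIP4;1, left of the line, and of the 6 root markers measured there, right of it, 1 deposited value for each of the 4 shoot groups. Squares are Ti and circles Ctrl groups, the dotted line is 3 reads over a group, and most values lie below 1 CPM, with ESB1 between 3.84 and 4.68 CPM.

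The log2 differences between 10 and 3 days spread over a wider range in shoots than in roots. In Ti shoots, 3 of 6 genes were higher and 2 lower at 10 days than at 3 days, where 35% of shoot genes were higher and 34.9% lower. In Ctrl shoots, 4 of 6 were higher and 2 lower, where 33% were higher and 34.6% lower. DELTA-TIP1 was 0.71 higher on the log2 scale in Ti and 0.50 in Ctrl shoots, GAMMA-TIP1 0.66 in Ti and 0.42 in Ctrl, and GAMMA-TIP2 0.45 in Ti and 0.27 in Ctrl. Under quantile normalization GAMMA-TIP2 had 0.64 in Ti and 0.55 in Ctrl shoots. DELTA-TIP2 was lower at 10 days in both, by a log2F.C. of -0.25 in Ti and -0.22 in Ctrl shoots. TIP4;1 had the lowest value of the 6 in both treatments, with -1.64 in Ti (counting interval -2.39 to -1.01) and -1.39 in Ctrl shoots (counting interval -1.95 to -0.88). DELTA-TIP3 had 0.72 in Ctrl shoots with a counting interval that includes 0 (-0.03 to 1.53), and a ratio of 4.51 in Ti shoots (counting interval 1.34 to 55.2) against a 3-day value under 3 reads. The shoot markers were lower at 10 days in the same comparison, 3 of 8 in Ti shoots (50969 CPM in Ti-S-10D against 60847 CPM in Ti-S-3D) and 8 of 8 in Ctrl shoots (46745 CPM in Ctrl-S-10D against 63221 CPM in Ctrl-S-3D), and none was higher. Their part in the TIP values was not tested.

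In roots, DELTA-TIP3 was higher and TIP4;1 lower at 10 days under both treatments. In Ti roots, 4 of 6 genes were higher and 1 lower at 10 days, where 33.9% of root genes were higher and 35.1% lower. In Ctrl roots, 1 of 6 was higher and 1 lower, where 30.4% were higher and 30.6% lower. DELTA-TIP3 was 0.52 higher in Ti and 0.62 higher in Ctrl roots, and TIP4;1 was lower, with -0.52 in Ti and -0.58 in Ctrl roots. Of the others, 3 were called higher in Ti roots and within the limit in Ctrl roots, and GAMMA-TIP1 was within it in both. DELTA-TIP1 had 0.32 in Ti and 0.05 in Ctrl roots, GAMMA-TIP2 0.31 in Ti and 0.16 in Ctrl, DELTA-TIP2 0.22 in Ti and 0.14 in Ctrl, and GAMMA-TIP1 0.15 in Ti and -0.07 in Ctrl. The DELTA-TIP2 call in Ti roots was lost under quantile normalization (0.13) and under scaling to the median (0.199). Of the 8 root markers, 5 were lower and 2 higher at 10 days in Ti roots (366 CPM in Ti-R-10D against 409 CPM in Ti-R-3D), and 6 were lower and 1 higher in Ctrl roots (287 CPM in Ctrl-R-10D against 422 CPM in Ctrl-R-3D). Of the 8 shoot markers in the same roots, 3 were higher and 2 lower in Ti (752 CPM in Ti-R-10D against 701 CPM in Ti-R-3D), and 5 were higher and 2 lower in Ctrl (699.8 CPM in Ctrl-R-10D against 592 CPM in Ctrl-R-3D). The part of either list in the TIP values, that of the shoot-rich DELTA-TIP1 among them, was not tested.

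**Figure D4:**
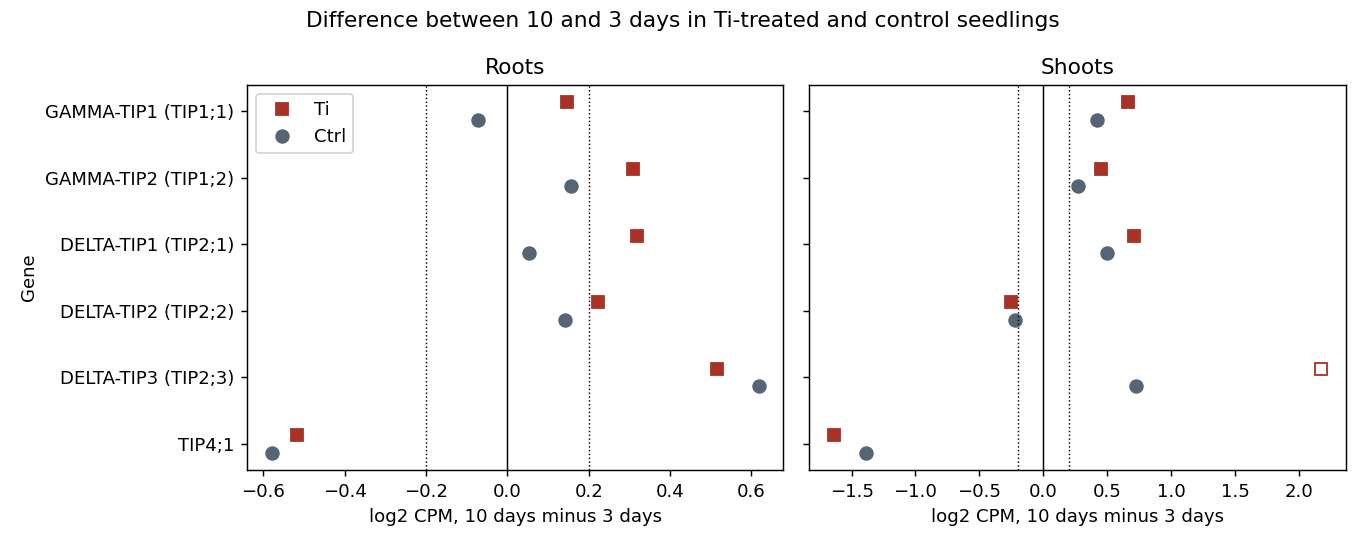
Log2 CPM at 10 days minus 3 days (horizontal) for the 6 TIP genes (vertical) in roots (left) and shoots (right), with squares for Ti and circles for Ctrl seedlings, dotted lines at -0.2 and 0.2, and an open square for a gene with under 3 reads in a group. TIP4;1 is left of 0 in both organs and both treatments, between -0.52 and -1.64, and DELTA-TIP2 lies right of 0 in roots and left of 0 in shoots.

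The Ti effects at the 2 days were set side by side, a difference that could not be tested. As a log2F.C. at 10 days minus that at 3 days, it was 0.22 for GAMMA-TIP1, 0.15 for GAMMA-TIP2 and 0.27 for DELTA-TIP1 in roots. In shoots it was 0.24 for GAMMA-TIP1, 0.18 for GAMMA-TIP2 and 0.21 for DELTA-TIP1. In both organs these 3 genes had a value below 0 at 3 days and above 0 at 10 days, except that quantile normalization put the 10-day shoot value at -0.04 for GAMMA-TIP2 and at 0 for DELTA-TIP1. DELTA-TIP2 had 0.08 in roots and -0.03 in shoots, and TIP4;1 had 0.06 in roots and -0.25 in shoots. DELTA-TIP3 had -0.10 in roots and no usable value in shoots. Differences above 0.2 were found for 2 of 6 genes in roots, where 25.4% of all genes had one, and for 2 of the 5 with a usable value in shoots, where 28.0% had one, beside 1 below -0.2 (25.6% of all genes).

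Summed over the 6 genes, TIP transcripts came to 5044 CPM in Ti-R-10D against 4680.1 CPM in Ctrl-R-10D, and to 4256 CPM in Ti-R-3D against 4356 CPM in Ctrl-R-3D. In shoots the sum was 3714 CPM in Ti-S-10D against 3586 CPM in Ctrl-S-10D, and 2566 CPM in Ti-S-3D against 2824 CPM in Ctrl-S-3D. The log2 ratio of Ti to Ctrl at 10 days was 0.11 for roots and 0.05 for shoots, and at 3 days it was -0.03 for roots and -0.14 for shoots. Quantile normalization gave 0.05 for roots and -0.01 for shoots at 10 days, and -0.07 for roots and -0.14 for shoots at 3 days. The difference with time was larger in shoots, with a log2 ratio of 10 to 3 days of 0.53 in Ti and 0.34 in Ctrl shoots, against 0.25 in Ti and 0.10 in Ctrl roots. Quantile normalization gave 0.70 in Ti and 0.57 in Ctrl shoots, and 0.196 in Ti roots, inside the limit, and 0.08 in Ctrl roots. The summed TIP transcripts thus made up between 0.257% and 0.504% of the normalized counts of a group.

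The plasma membrane intrinsic proteins (PIPs), the aquaporins of the cell surface, were set beside the TIPs as the other large aquaporin family. For this list and those below, 23.7% of all root genes were higher and 22.3% lower with Ti at 10 days. At 3 days 8.51% were higher and 8.38% lower. Of all shoot genes, 24.2% were higher and 21.7% lower at 10 days, and 13.1% higher and 12% lower at 3 days. In shoots at 3 days all 13 PIPs were below 0, and 5 were lower and 0 higher. Their median was -0.16, against -0.19 for the 6 TIP genes and -0.18 without DELTA-TIP3. PIP2C (PIP2;3) had a log2F.C. of -0.37, PIP2B (PIP2;2) -0.31, PIP1C (PIP1;3) -0.28 and PIP2F (PIP2;4) -0.22. In roots at 3 days 12 of 13 were below 0, with a median of -0.13 against -0.04 for the TIP genes, and PIP1B (PIP1;2) was lower at -0.24 while PIP2E (PIP2;6) was higher at 0.33. At 10 days the PIPs were mixed, with 4 higher and 2 lower in roots (median 0.11) and 5 higher and 1 lower in shoots (median 0.05). In roots the ends of their range were PIP2D (PIP2;5), with 6.24 CPM in Ti-R-10D against 16.1 CPM in Ctrl-R-10D, and PIP2E, with 3.85 CPM in Ti-R-10D against 1.82 CPM in Ctrl-R-10D.

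The PIPs were set beside the TIPs over time as well. Of all root genes, 33.9% were higher and 35.1% lower at 10 days in Ti, and 30.4% and 30.6% in Ctrl. Of all shoot genes, 35% were higher and 34.9% lower in Ti, and 33% and 34.6% in Ctrl. In roots 8 of 13 PIPs were higher and 2 lower at 10 days in Ti seedlings, and 9 higher and 1 lower in Ctrl seedlings. In shoots 9 were higher and 2 lower in Ti seedlings, and 5 higher and 3 lower in Ctrl seedlings. The PIP medians were 0.41 in Ti and 0.27 in Ctrl roots, and 0.43 in Ti and 0.08 in Ctrl shoots, against TIP medians of 0.27 in Ti and 0.10 in Ctrl roots, and 0.56 in Ti and 0.35 in Ctrl shoots. Without DELTA-TIP3, the TIP median in Ti shoots was 0.45.

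Other proteins of the tonoplast were taken as neighbours in the same membrane. The 9 vacuolar pump genes, subunits of the V-ATPase and the pyrophosphatase VHP1;1 that energize the vacuole, had 0 calls with Ti in roots at 3 days and in shoots at both times, and 1 in roots at 10 days, VHP1;1 at -0.27. With time, 6 pump genes were lower and 0 higher in Ti roots, 5 and 0 in Ctrl roots, 4 and 1 in Ti shoots, and 4 and 0 in Ctrl shoots. Of 13 tonoplast transporters, 0 were called with Ti in roots at 3 days, 2 were lower in shoots at 3 days, and at 10 days roots had 2 higher and 1 lower, and shoots 3 higher and 5 lower. Named by size, the lower ones in shoots at 10 days were the calcium exchanger CAX1 (-0.42), the nitrate exchanger CLCa (-0.37), the sugar carrier ESL1 (-0.35) and the sugar importer TST1 (-0.32).

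Of the nodulin 26-like aquaporins (NIPs), which pass metalloids such as boric acid, 7 of 9 were measured in each organ. In roots, 3 were higher and 2 lower with Ti at 10 days, and 0 higher and 2 lower at 3 days. In shoots, 1 was higher and 2 lower at 10 days, and 1 higher and 1 lower at 3 days. Of the 3 small basic aquaporins (SIPs) of the endoplasmic reticulum, 2 were lower in roots and 1 in shoots at 10 days, and 0 were called at 3 days in either organ.

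**Figure D5:**
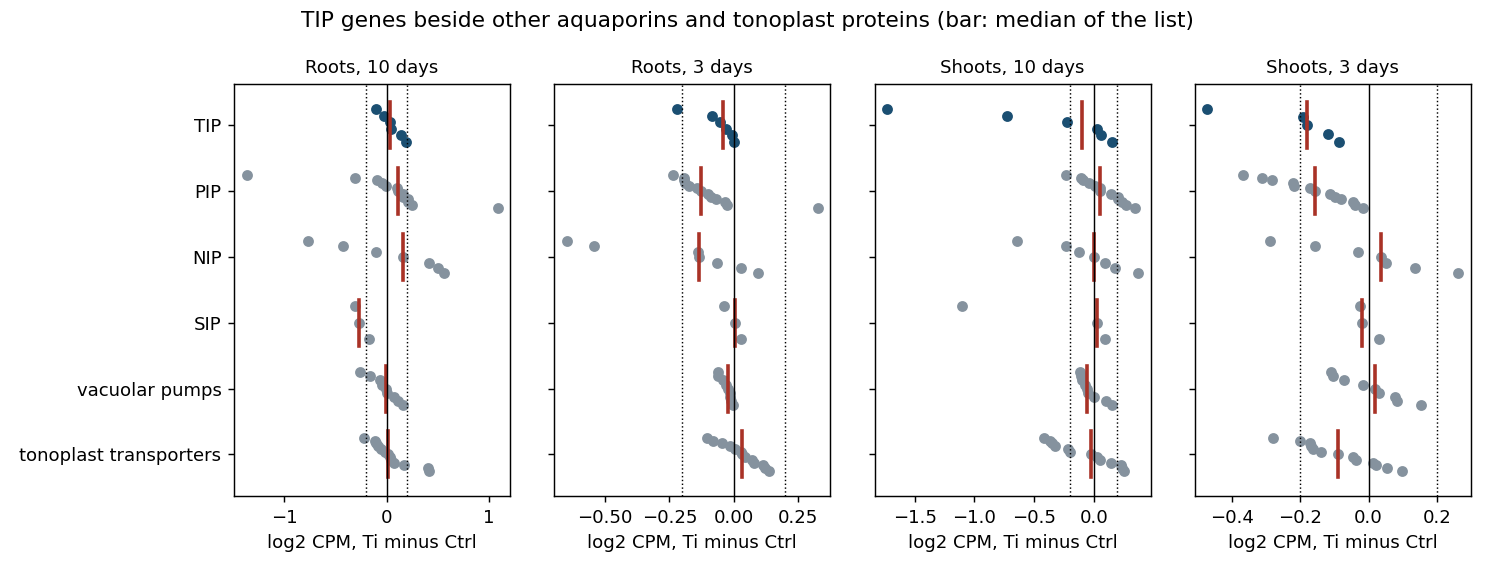
Log2 CPM of Ti minus Ctrl (horizontal) for the TIP genes (dark) and 5 other lists (grey), 1 point per gene, with the median of each list as a bar and dotted lines at -0.2 and 0.2. Panels have their own scales, and genes with under 3 reads in a group are left out. In shoots at 3 days all 13 PIP points and the 5 TIP points shown lie left of 0, while the vacuolar pumps lie on both sides within the limit.

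Likeness of pattern was measured as Pearson's r over the 8 group values after the mean of each organ was subtracted, among 10230 genes averaging 10 CPM or more in each organ. With 8 group values and so many genes, high values are to be found for most patterns, and they are a description. Nearest to DELTA-TIP1 was the plasma membrane aquaporin PIP2C, listed by RefSeq as RD28 (r = 0.985), followed by AT3G01170 (0.984) and GH9B13 (0.982). PIP2C had 359 CPM in Ti-R-10D against 311 CPM in Ctrl-R-10D, 229 CPM in Ti-R-3D against 262 CPM in Ctrl-R-3D, 71.1 CPM in Ti-S-10D against 75.6 CPM in Ctrl-S-10D, and 27.3 CPM in Ti-S-3D against 35.2 CPM in Ctrl-S-3D. It is root-rich where DELTA-TIP1 is shoot-rich, and the likeness is in the differences within each organ.

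Nearest to GAMMA-TIP1 were AT3G29180 (r = 0.998), AT3G58640 (0.997) and AT1G07080 (0.993). Nearest to GAMMA-TIP2 were CKB3, a regulatory subunit of casein kinase 2 (r = 0.997), AT4G24290 (0.993) and AT3G47610 (0.992). DELTA-TIP2 had AT1G73920 (r = 0.972), AT2G04360 and AT1G79520 (both 0.952) nearest to it. DELTA-TIP3 and TIP4;1 were below 10 CPM in shoots, and their nearest genes, AT2G47350 (r = 0.926) and AT5G40810 (r = 0.986), rest on shoot values of few reads. Among the members, r was 0.88 between GAMMA-TIP1 and GAMMA-TIP2, 0.92 between GAMMA-TIP1 and DELTA-TIP1, and 0.92 between GAMMA-TIP2 and DELTA-TIP1. TIP4;1 ran against all 3, with r of -0.89 to GAMMA-TIP1, -0.86 to GAMMA-TIP2 and -0.85 to DELTA-TIP1. These values too rest in part on the TIP4;1 shoot groups, of between 25.3 and 110.7 inferred reads each.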

How the data were processed

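Total RNA of root and shoot pools was sequenced from TruSeq libraries. The authors checked and trimmed reads with FastQC 0.11.9 and Trim Galore 0.6.6, quantified Araport11 transcripts with kallisto 0.44.0, used tximport for sums per gene, removed genes of low CPM, and ran edgeR separately for the organs. Each table, as deposited, gives log2 CPM on that scale, with 1 value per group repeated in its 3 columns. Planned limma fits could therefore not be run, and p-values are not given.

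Differences of group values were computed with Python 3.11.15, pandas 2.3.3 and numpy 2.4.6, without a filter or an added pseudocount, and called beyond 0.2. Steps were run on simulated data. For the calls, the planted changes were well past 0.2 and the counts had no spread between pools. The run therefore does not show how reliable calls near 0.2 are. Counting intervals used scipy 1.17.1, and coding sequences were aligned with MAFFT 7.526. Inferred depth was 21.5 reads per CPM in a root library and 22.6 in a shoot library, if the lowest values are the prior count of the authors' edgeR fit. All members were described in every comparison. From each other list up to 4 genes averaging 1 CPM or more were named by size of difference, and 3 genes per member by likeness. Members and lists were chosen with earlier results of these data known. PIP2C over all groups, and the root markers in shoots, were shown after their values were seen. Alternatives were an added 0.1 or 1 CPM, a 1 CPM filter, scaling to the median, quantile normalization, a limit of 0.5, and close relatives summed. Names, gene models and sequences are from RefSeq TAIR10.1, whereas reads were assigned to Araport11.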

Additional observations from a re-analysis of the deposited data

Results flagged for a closer look

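DELTA-TIP2 had opposite signs with time in the 2 organs of Ti-treated seedlings. Its log2 CPM at 10 days minus that at 3 days was 0.22 in roots and -0.25 in shoots, with 1032 CPM in Ti-R-10D against 884 CPM in Ti-R-3D, and 77.5 CPM in Ti-S-10D against 92.4 CPM in Ti-S-3D. The Ti root value fell inside the limit under quantile normalization (0.13) and under scaling to the median (0.199). In Ctrl seedlings the values were 0.14 in roots and -0.22 in shoots. The difference between the organs was not tested, since each group has 1 value and the organs were normalized apart.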

How the results depend on the processing

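Of 302 values of the 6 genes under the alternatives, 282 kept their side of the limit, 14 fell inside the limit, 12 of them under a limit of 0.5, 5 passed it, and 1 called value changed sign. Of the 282, 276 kept their sign, 5 turned it inside the limit and 1 was 0. Much of this was fixed in advance. The 1 CPM filter leaves a value as it is (42 of the 302), and a limit of 0.5 cannot move one already inside 0.2. Adding 0.1 or 1 CPM (46 values each) changes a well-expressed gene little. Of 46 values each, scaling to the median kept 43 on their side of the limit and quantile normalization 44. With Ti, quantile normalization turned DELTA-TIP2 in 10-day roots (-0.04), DELTA-TIP3 in 3-day roots (0.03) and GAMMA-TIP2 in 10-day shoots (-0.04), and put DELTA-TIP1 in 10-day shoots at 0. Summing relatives turned DELTA-TIP2 in 10-day roots with Ti (-0.01) and GAMMA-TIP1 in Ctrl roots with time (0.06). The called value was DELTA-TIP3 from 3 to 10 days in Ctrl shoots, -0.22 once summed with the far more abundant DELTA-TIP2. Under a limit of 0.5, the genes higher with time numbered 1 in Ti roots and 1 in Ctrl shoots (against 4 in each), those lower with time 1 in Ti shoots and 1 in Ctrl shoots (against 2 in each), and those lower with Ti at 3 days 0 in roots and 0 in shoots (against 1 in each). At this limit 17.2% of all genes were higher with time in Ti roots (against 33.9%). In Ctrl shoots 15.9% were higher (against 33.0%) and 19.3% lower (against 34.6%). The same limit left 0 genes in roots (against 2) and 0 in shoots (against 3) whose Ti effect differed between the days. With a mean of at least 1 CPM, genes lower in Ti shoots numbered 1 with time (against 2) and 1 with Ti at 10 days (against 3), since fewer genes entered. Scaling to the median gave 1 higher gene in Ti roots at 10 days (against 0) and 2 lower genes in Ti shoots at 3 days (against 1), and quantile normalization also gave 2 there. The cause of the shifts under both scalings was not tested.

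Depth limits the shoot values of DELTA-TIP3 and TIP4;1, which rest on between 2.31 and 110.7 inferred reads per group. No paired analysis was possible because a group's 3 columns are identical, and for the same reason the fits without each library in turn and with a replicate block were not run.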
